A study of Caenorhabditis elegans with 4 samples.

Results

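The centre of chromosome V held 654 of the 10731 RNA polymerase II (Pol II) peaks listed for fourth-stage larvae (L4) of Caenorhabditis elegans, and 654 of the 1438 peaks on that chromosome. The centre was defined by position alone. The span of V was taken from 0 to the end of its last listed peak at 20847641, it was split into 3 equal segments, and every peak whose midpoint fell in the middle segment, from 6949214 to 13898427 (6.95 Mb), was a member. All coordinates are on the WormBase build WS190. The 2 ChIP DNA samples and the 2 input DNA samples all came from wild-type N2 hermaphrodites at stage L4, grown in liquid culture on E. coli HB101 at 20 °C and crosslinked with 2% formaldehyde. Their labels pair ChIP and input under replicates 1 and 2. The antibody label names 8WG16, a mouse monoclonal against the repeated tail of the largest Pol II subunit (AMA-1), whereas the attached protocol text describes embryos and an anti-GFP serum. The stage and antibody labels were followed here. The only file analysed is a single list combined over samples, so no value below has a replicate error and no test between conditions was possible.

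Pol II transcribes all protein-coding genes. In ChIP it marks genes being transcribed or carrying paused polymerase, and on heavily transcribed genes the signal can extend over the whole gene body. In C. elegans the centres of the autosomes recombine little and are rich in conserved, widely expressed genes. Chromosome V is known for large families of chemoreceptor genes, many of which are expressed in few cells. Whole worms were used, so many cells with little bound Pol II and few cells with much of it cannot be told apart.

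Each listed peak has a start, an end and a q-value, that is, a p-value for ChIP against input after correction for multiple testing. Strength is given here as −log10 of that q-value, so a strength of 2 is a q-value of 0.01 and a larger strength means a smaller q-value. It grows with sequencing depth and peak width as well as with enrichment. Sequencing depth is unknown here. Intervals are exact 95% intervals and cover counting error only. They treat neighbouring peaks as independent. Counts in bins of 250 kb varied more than independent counts would, with a variance between 2.09 (II) and 2.56 (IV) times the mean in the 5 centres. The intervals are therefore likely too narrow, and narrow margins between them settle nothing. No gene annotation or genome sequence of build WS190 was used here, so peaks are named by position, and no gene or sequence is given for them.

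A limit on the strongest peaks can be read from the q-values. Multiplied by its place in the list, a q-value returns the p-value on a common scale, and tied p-values must then give equal products. When the first listed peak was given rank 68, 4672 neighbouring pairs of the list had equal products (relative difference under 1e-09), and none fell. For every other first rank tried between 1 and 200, no pair was equal. By these ties, 67 regions are missing above the first tied pair, and the list ends at rank 10798. Tied pairs alone set this number, so whether all 67 rank above the first listed peak was not shown. These 67 regions were not analysed here, and where they lie is not known. Every count of very strong peaks below is a count of listed peaks.

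The centre of V carried fewer Pol II peaks than the centres of the other autosomes compared, and more than the centre of X. Those autosomes were II, III and IV, and chromosome I was not compared. It had 94.1 peaks per Mb. The corresponding middle segments held 737 peaks at 145 per Mb on II, 724 at 158 per Mb on III, 768 at 132 per Mb on IV and 365 at 61.8 per Mb on X. The ratio of V to the other centre was 0.650 (0.584 to 0.723) for II, 0.597 (0.536 to 0.664) for III and 0.714 (0.642 to 0.793) for IV. Against X it was 1.52 (1.34 to 1.74). The length inside peaks differed less, with 8.18% of the V centre covered, against 9.66% on II, 10.7% on III, 10.3% on IV and 6.24% on X.

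The shortfall of V lay among peaks of weak and intermediate strength, and it was largest in the intermediate range. Peaks of strength 5 to under 50 numbered 267 in the V centre, or 38.4 per Mb. Their density was 75.4 per Mb on II, 84.1 on III and 68.5 on IV, which gave ratios of 0.509 (0.434 to 0.597), 0.457 (0.390 to 0.536) and 0.561 (0.479 to 0.657). Below strength 5, where V had 333 peaks at 47.9 per Mb, the ratios were nearer to 1, at 0.760 (0.650 to 0.889) for II, 0.729 (0.622 to 0.854) for III and 0.823 (0.706 to 0.961) for IV. In finer classes the ratios of V to II, III and IV were lowest between strengths 5 and 20. Its 141 peaks of strength 5 to under 10 gave 20.3 per Mb, against 40.9 on II, 45.7 on III and 36.9 on IV. The 73 of strength 10 to under 20 gave 10.5 per Mb, against 21.4, 23.5 and 19.4 on those chromosomes in the same order.

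Strong peaks were not scarce in the V centre, and their density could not be told apart from that of the centres of II, III and IV. Of its 654 peaks, 54 had a strength of at least 50, which is 8.26% (6.26 to 10.6), where 5.46% of the whole list passed that limit. The corresponding shares were 4.34% (2.99 to 6.07) on II, 4.97% (3.51 to 6.82) on III, 3.91% (2.65 to 5.53) on IV and 4.38% (2.53 to 7.02) on X. The interval of V lies narrowly above that of II, above that of IV, and overlaps those of III and X. Per Mb the V centre held 7.77 such peaks, against 6.29 on II, 7.84 on III, 5.15 on IV and 2.71 on X. The ratios were 1.24 (0.784 to 1.98), 0.991 (0.638 to 1.56) and 1.51 (0.948 to 2.44) for the 3 autosomes, and all 3 intervals include 1. Against X the ratio was 2.87 (1.62 to 5.37). The unlisted regions may bear on these ratios, where they are that strong. With none added to the V centre, 8 further regions in the II centre would raise its density to at least that of V. The number needed was 16 in the IV centre and 30 in the X centre.

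The strong peaks were then split by strength. From 50 to under 100 the V centre had 33 peaks, or 4.75 per Mb, against 14 on II (2.75 per Mb), 23 on III (5.01), 16 on IV (2.75) and 12 on X (2.03). The intervals of the ratios to II (1.73, 0.899 to 3.49) and to IV (1.73, 0.925 to 3.36) include 1, so a higher density on V was not established at these counts. At a strength of at least 100 the V centre had 21 peaks (3.21%, interval 2.00 to 4.87), with 2.15% of the whole list past that limit. The centres of II, III, IV and X had 18, 13, 14 and 4. At a strength of at least 200 the counts were 6 on V, 4 on II, 5 on III, 3 on IV and 2 on X, where 0.596% of the whole list passed.

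**Figure D1:**
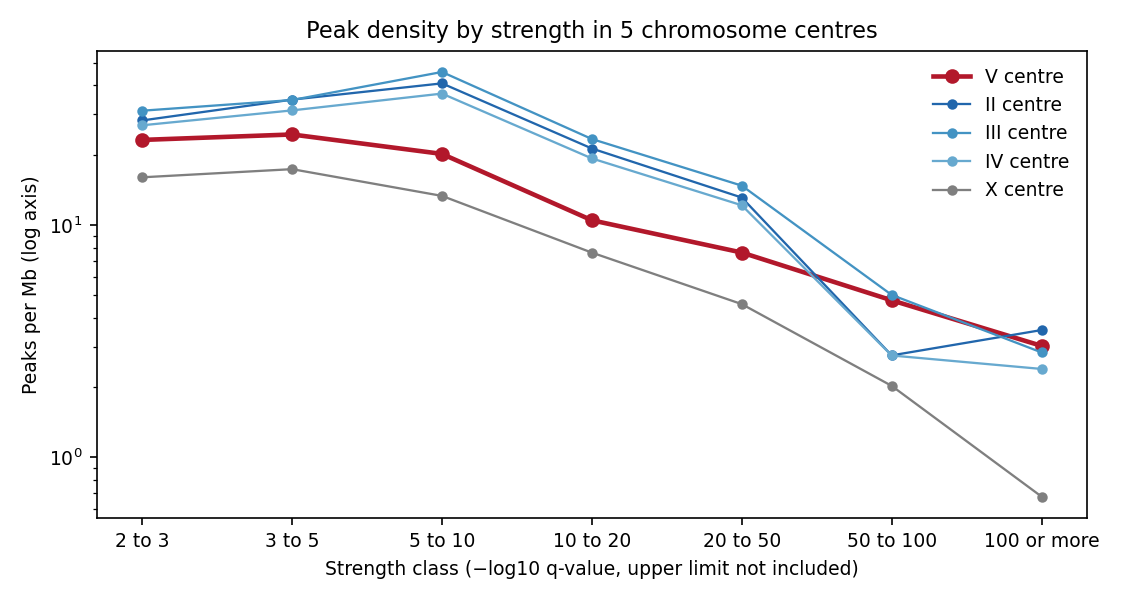
Peaks per Mb (log axis) in 7 classes of strength, −log10 of the q-value, for the middle segments of V, II, III, IV and X, with 1 point per class and chromosome. V runs below II, III and IV under strength 50, with the lowest ratios at 5 to under 20 (20.3 against 36.9 to 45.7 per Mb in the class from 5). V meets them from strength 50 upward, while X stays lowest. No intervals are drawn.

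The strengths of the V centre lay above those of the other 4 centres at the 90th percentile, but not at the median or the upper quartile. Its median was 4.83 (4.49 to 5.34), against 5.67 (5.20 to 6.04) on II, 5.92 (5.52 to 6.38) on III, 5.62 (5.20 to 6.05) on IV and 4.41 (4.03 to 5.06) on X. Between V and each of II, IV and X these intervals overlap. The upper quartile was 11.4 on V and between 9.37 and 11.7 in the other 4 centres. The 90th percentile was 43.9 on V, against 28.3 on II, 28.6 on III, 27.6 on IV and 23.0 on X. Quartiles and percentiles carry no interval here, and they also depend on how many weaker peaks a centre holds. Peaks of strength 50 or more held 31.9% of the covered length of the V centre, against 23.0% on II, 24.2% on III, 16.3% on IV and 18.2% on X.

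Peaks in the V centre were wider than those in the centres of II and III. The median width was 503 bp (468 to 549), with quartiles of 277 and 907.5 bp and a range from 1 to 9204 bp. It was 375 bp (344 to 412) on II, 366 bp (343 to 399) on III, 464.5 bp (423 to 487) on IV and 627 bp (562 to 719) on X. The intervals of V and IV overlap. Peaks of at least 2 kb numbered 68, or 10.4% (8.16 to 13.0), where 7.42% of the whole list was that wide, and they held 43.2% of the covered length. Their density of 9.79 per Mb was close to the 9.82 on II, 10.5 on III and 11.5 on IV, and the intervals of those 3 ratios (0.681 to 1.47, 0.637 to 1.38 and 0.598 to 1.21) include 1. At least 5 kb was reached by 11 members (1.68%, whole list 1.09%), and 43 were narrower than 100 bp (6.57%, whole list 9.04%).

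Width and strength rose together across the members, which share reads and local depth and are not replicates. Spearman's rho was 0.72 over the 654 peaks, and 0.73, 0.74, 0.76 and 0.64 in the centres of II, III, IV and X. The median strength in the V centre went up by width class, with 2.84 at 100 to under 250 bp, 3.95 at 250 to under 500 bp, 5.97 at 500 to under 1000 bp, 14.9 at 1 to under 2 kb and 52.0 from 2 kb. At equal width, peaks of 250 to under 1000 bp were weaker on V than on II and III, but not than on X. On X the median was 3.78 (3.32 to 4.24) at 250 to under 500 bp and 4.41 (3.77 to 5.07) at 500 to under 1000 bp. At 250 to under 500 bp the median was 3.95 (3.48 to 4.37) on V, against 5.37 (5.06 to 5.94) on II, 5.83 (5.27 to 6.38) on III and 4.64 (4.24 to 5.06) on IV. At 500 to under 1000 bp the median of 5.97 (5.34 to 7.09) on V lay below 8.52 (7.70 to 9.50) on II and 9.22 (7.80 to 10.9) on III, and near 7.16 (6.55 to 8.26) on IV, whose interval overlaps that of V. Among the widest peaks this order was not kept. From 2 kb the median was 52.0 (45.7 to 85.3) on V, 48.3 (35.2 to 82.7) on II, 61.1 (45.6 to 78.5) on III, 37.8 (28.2 to 44.3) on IV and 39.2 (21.1 to 52.3) on X.

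**Figure D2:**
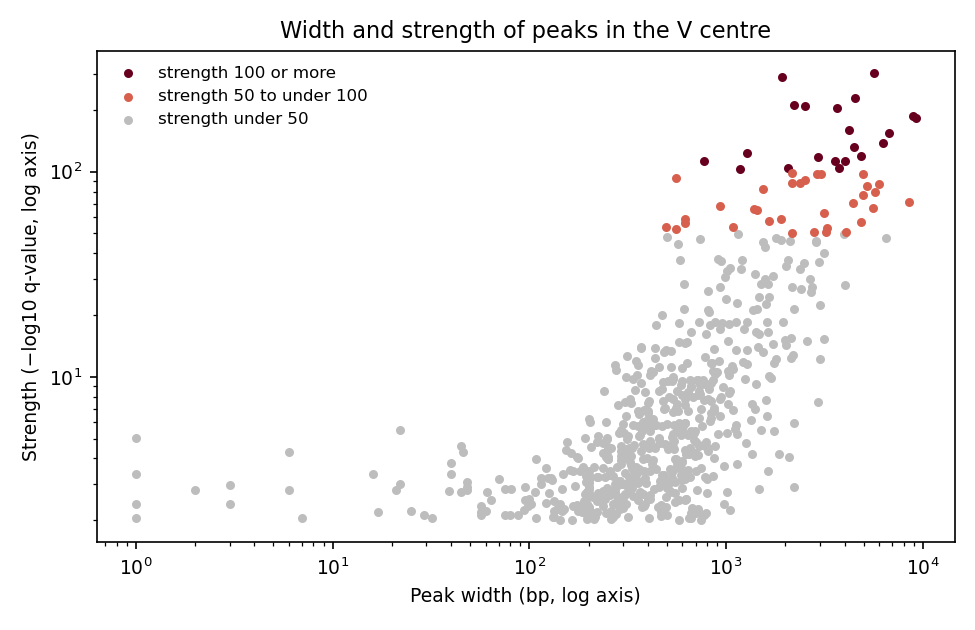
Width in bp and strength as −log10 of the q-value, both on log axes, for each of the 654 peaks of the V centre, with colour for 3 ranges of strength. The 54 peaks of strength 50 or more are 494 to 9204 bp wide, and 38 of them reach 2 kb.

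The strongest listed peak of the whole genome lay in the V centre. It ran from 12551574 to 12557250 (5677 bp, q = 2.10e-303), and its left neighbour from 12548602 to 12550531 (1930 bp, q = 1.54e-290), 1042 bp away, was the second strongest in the V centre. On their outer sides the pair was flanked by a peak of strength 33.5, at a distance of 5223 bp on the left, and by one of strength 3.61, 3227 bp away on the right. The strongest listed peaks of the other centres were at 5333547 to 5341430 on II (q = 5.68e-296), 7973061 to 7977660 on III (q = 7.37e-252), 11080611 to 11083825 on IV (q = 1.32e-264) and 6740822 to 6745432 on X (q = 1.02e-284).

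A second close pair stood near the left edge of the centre. The peak from 7414806 to 7417312 (2507 bp, strength 208) followed 512 bp after the peak from 7413113 to 7414293 (1181 bp, strength 103). The pair was otherwise remote from other peaks, with the next ones 29848 bp away on the right (75 bp wide, strength 2.11) and 27310 bp away on the left (39 bp wide, strength 2.79). Both outer neighbours were very narrow and close to the limit of the list.

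Another 3 very strong peaks had no neighbour stronger than 5.005. The third strongest, from 9729748 to 9734258 (4511 bp, strength 230), had neighbours of strength 3.19 and 2.37 at 3818 and 6678 bp. The peak from 10711704 to 10720593 (8890 bp, strength 187) had neighbours of strength 2.40 at 12256 bp and 2.92 at 1220 bp. The widest member, from 13649778 to 13658981 (9204 bp, strength 184), had neighbours of strength 5.005 at 19710 bp and 2.62 at 318 bp. All 6 of these neighbours were more than 100 below their peak in strength. A further pair of very strong peaks had 1 neighbour of intermediate strength each. The peak from 11887765 to 11889972 (2208 bp, strength 211) had a neighbour of strength 21.3 at 1430 bp on the left and a 2 bp peak of strength 2.82 at 7913 bp on the right. The peak from 9544248 to 9547900 (3653 bp, strength 203) had neighbours of strength 3.08 at 7474 bp and 11.5 at 1566 bp.

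The remaining 2 of the 10 strongest had a strong neighbour. The peak from 8415032 to 8421762 (6731 bp, strength 154) was followed after 306 bp by one of 5612 bp and strength 66.8, whereas its left neighbour, 10324 bp away, had a strength of 4.15. The peak from 10940446 to 10944639 (4194 bp, strength 159) had a peak of strength 91.3 at 6853 bp on the right and one of strength 24.4 at 1423 bp on the left. Of the 5 widest members, 3 were among these 10. The others ran from 7803717 to 7812243 (8527 bp, strength 71.4), with a neighbour of strength 6.29 at 224 bp, and from 7075511 to 7082016 (6506 bp, strength 47.7), with neighbours of strength 3.53 at 7194 bp and 3.24 at 2804 bp.

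**Figure D3:**
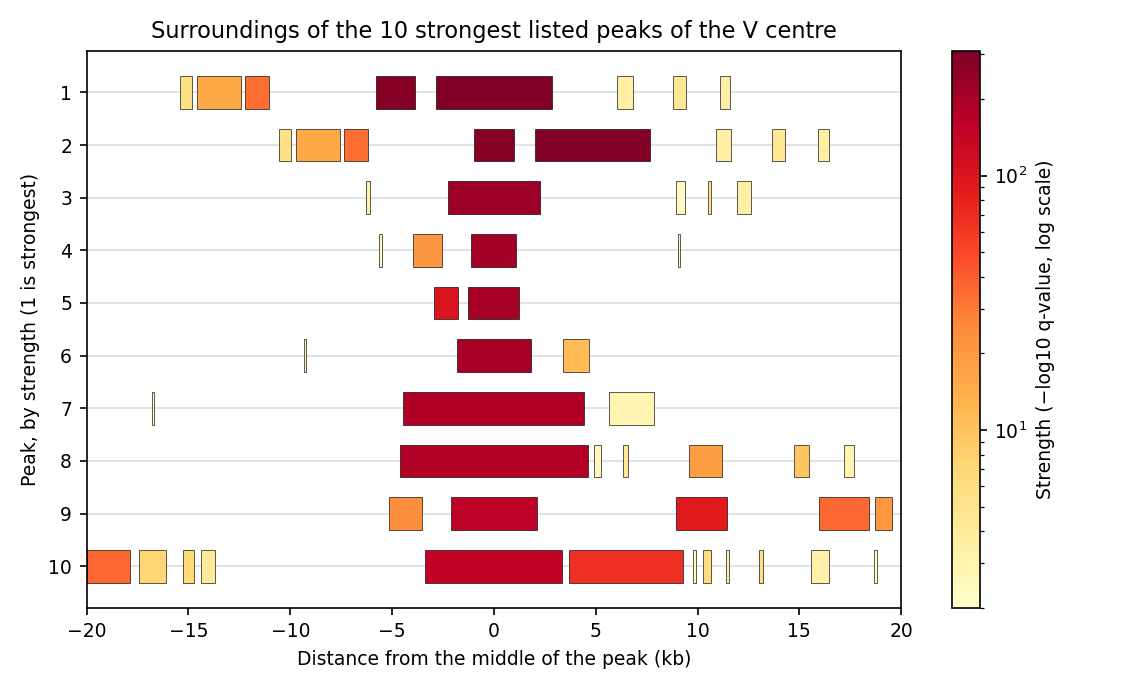
Listed peaks within 20 kb of the middle of each of the 10 strongest listed peaks of the V centre, strongest at the top, as boxes drawn to scale along distance in kb and coloured by strength (−log10 q-value, log scale); very narrow peaks are drawn slightly wider so that they can be seen. Rows 1 and 2 show the same pair, 1042 bp apart, and rows 3, 7 and 8 show peaks whose nearest neighbours on both sides have strengths of 5.005 or less.

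The 21 members of strength 100 or more had both weak and strong neighbours. Of their 42 flanking positions, counting left and right separately, 21 held a peak of strength under 5, 13 one of 5 to under 50 and 8 one of at least 50. Among all members 50.9% were under 5, 40.8% from 5 to under 50 and 8.26% at least 50. Close pairs of strong peaks enter the 8 from both sides. Both neighbours were under 5 for 5 of the 21. Their widths ran from 773 to 9204 bp with a median of 3753 bp, and 4 were narrower than 2 kb. At least 1 neighbour of strength 50 or more stood beside 16 of the 54 strong peaks (29.6%, 18.0 to 43.6), against 4 of 32 on II, 10 of 36 on III, 4 of 30 on IV and 2 of 16 on X. These intervals overlap (3.51 to 29.0% on II, 14.2 to 45.2% on III and 3.76 to 30.7% on IV), so the grouping of strong peaks could not be separated between the centres. The same share over all members or over the whole list was not computed. Strong peaks were also a larger share of all peaks on V (8.26%) than on II (4.34%), III (4.97%), IV (3.91%) and X (4.38%). A strong neighbour is therefore more frequent on V even without grouping.

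Along the centre of V the density was uneven, with a trough near its left edge. Over the 27 full bins of 250 kb the count ran from 5 to 37, with a median of 24 and quartiles of 20.5 and 29. The mean was 23.6 ± 7.60 (SD over bins), and the variance was 2.44 times the mean. None of the 27 bins exceeded the median bin of II (37 peaks) or III (43), 2 exceeded that of IV (32.5), and 24 exceeded that of X (12). Relative to the mean, the SD was 32.1% on V, against 23.7% on II, 24.7% on III, 28.0% on IV and 40.9% on X. That measure depends on the mean count, which was lower on V than on II, III and IV. The variance over the mean was 2.09 on II, 2.48 on III, 2.56 on IV and 2.52 on X, so by it V was not more uneven than III, IV or X.

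Of the 5 densest bins, 3 lay right of the middle of the centre. The densest were 11750001 to 12000000 with 37 peaks, 10750001 to 11000000 with 34, 7000001 to 7250000 and 12500001 to 12750000 with 32 each, and 8000001 to 8250000 with 31. The sparsest were 7250001 to 7500000 with 5 peaks, 7500001 to 7750000 with 9, 11250001 to 11500000 with 11, 10250001 to 10500000 with 15 and 8750001 to 9000000 with 17. The bin with 5 peaks held 2 of the very strong ones, the close pair described above, although peaks covered 1.62% of it. The bin from 11250001 to 11500000 had the smallest covered length, 1.34%, and its strongest peak reached 8.67. The most covered bin, 10750001 to 11000000, had 14.4% inside peaks.

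**Figure D4:**
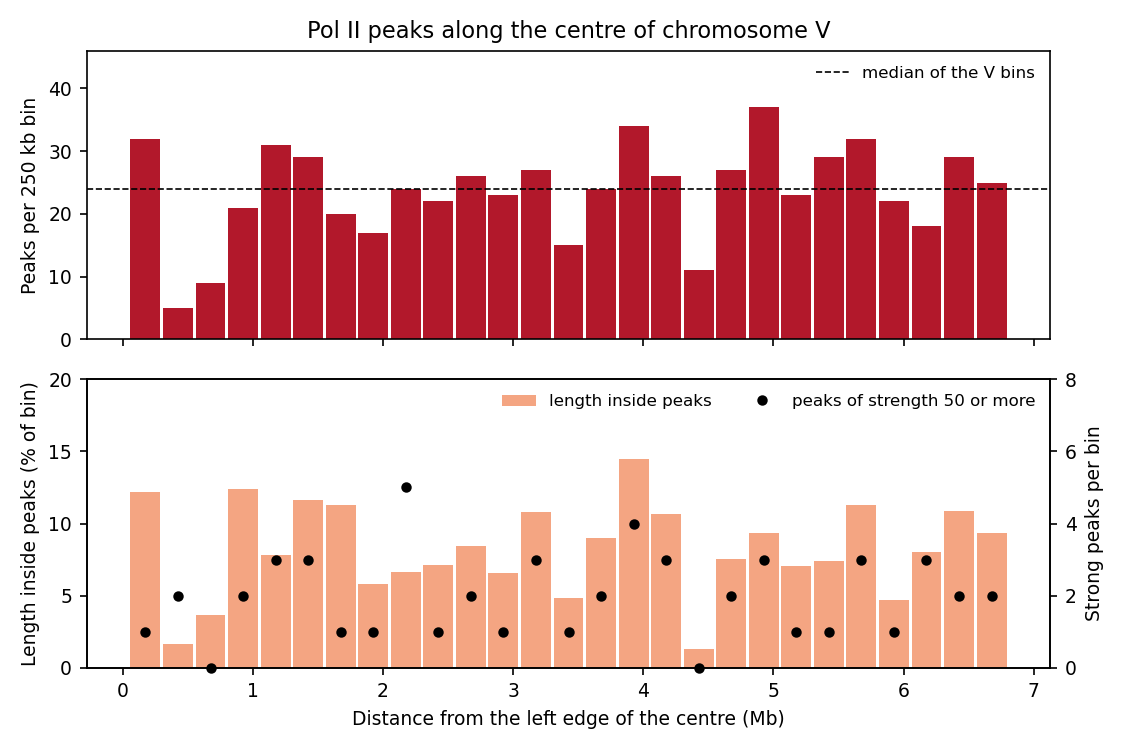
Along the centre of V, by distance from its left edge in Mb, the upper panel gives the number of peaks in each full 250 kb bin with the median of 24 as a dashed line, and the lower panel gives the percentage of each bin inside peaks (bars, left axis) and the number of peaks of strength 50 or more (points, right axis). The trough of 5 and 9 peaks lies in the first 1 Mb, and 25 of the 27 bins hold at least 1 strong peak.

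Strong peaks were spread over nearly the whole centre. At least 1 peak of strength 50 or more was present in 25 of the 27 full bins on V, against 15 of 19 on II, 13 of 17 on III, 13 of 22 on IV and 9 of 23 on X. No V bin held more than 5. The left part of the centre, up to its midpoint, had 299 peaks (86.1 per Mb) with 26 of strength 50 or more, and the right part had 355 (102 per Mb) with 28. Bins with more peaks tended to hold more strong ones, with a Spearman's rho of 0.56 over 27 bins on V, against 0.22 over 19 on II, 0.37 over 17 on III, 0.07 over 22 on IV and 0.32 over 23 on X. The strong peaks of a bin are also part of its total, and both counts share the calling threshold and local depth. The rho values carry no interval, so these are descriptions.

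Peak counts were lower just inside the left edge of the centre than just outside it, and higher inside than outside at the right edge. These counts carry no interval. At the left edge the inner 1 Mb held 64 peaks and the outer 95, while the length inside peaks was close, at 7.33% inside and 7.79% outside. At the right edge the inner 1 Mb held 102 and the outer 85, but the length inside peaks did not follow, with 8.80% inside and 8.99% outside. The left edge lay in an empty stretch between the peak from 6998547 to 6999123 (strength 2.52) inside and the peak from 6890769 to 6892173 (strength 25.8) outside. The right edge lay between 13893449 to 13893803 (strength 2.50) inside and 13906335 to 13906698 (strength 2.29) outside.

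Long gaps between neighbouring peaks made up a larger share in the V centre than in the centres of II, III and IV. The median of its 653 gaps was 2503 bp (2040 to 3034), against 1861.5 bp (1587 to 2171) on II, 1909 bp (1673 to 2123) on III, 1792 bp (1491 to 2114) on IV and 3633.5 bp (2772 to 4793) on X. The interval of V overlaps those of II, III, IV and X at its ends. The difference was larger among long gaps. Gaps of 20 kb or more made up 16.2% on V (106 gaps, interval 13.5 to 19.3), where the whole list had 12.2%. The share was 9.38% (7.37 to 11.7) on II, 7.33% (5.54 to 9.48) on III, 11.0% (8.83 to 13.4) on IV and 23.1% (18.8 to 27.8) on X. The interval of V lies above those of II and III and overlaps that of X. It lies above that of IV by a margin too small to be relied on. The upper quartile of gap length was 10600 bp on V, against 5775, 5726, 7007 and 18684 bp. Gaps under 1 kb made up 30.6% on V (200 gaps, interval 27.1 to 34.3), where the whole list had 35.8%. Shares of short and long gaps follow peak density, and that part was not separated here.

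The 5 longest empty stretches all lay in the left part of the centre. They ran from 7582284 to 7727889 (145606 bp), 7248896 to 7385763 (136868 bp), 8672160 to 8786750 (114591 bp), 8793381 to 8898592 (105212 bp) and 7893213 to 7972455 (79243 bp). The peaks that bounded these 5 stretches had strengths from 2.07 to 12.2. The longest gaps in the other centres were 104846 bp on II, 84430 bp on III, 78286 bp on IV and 165081 bp on X.

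**Figure D5:**
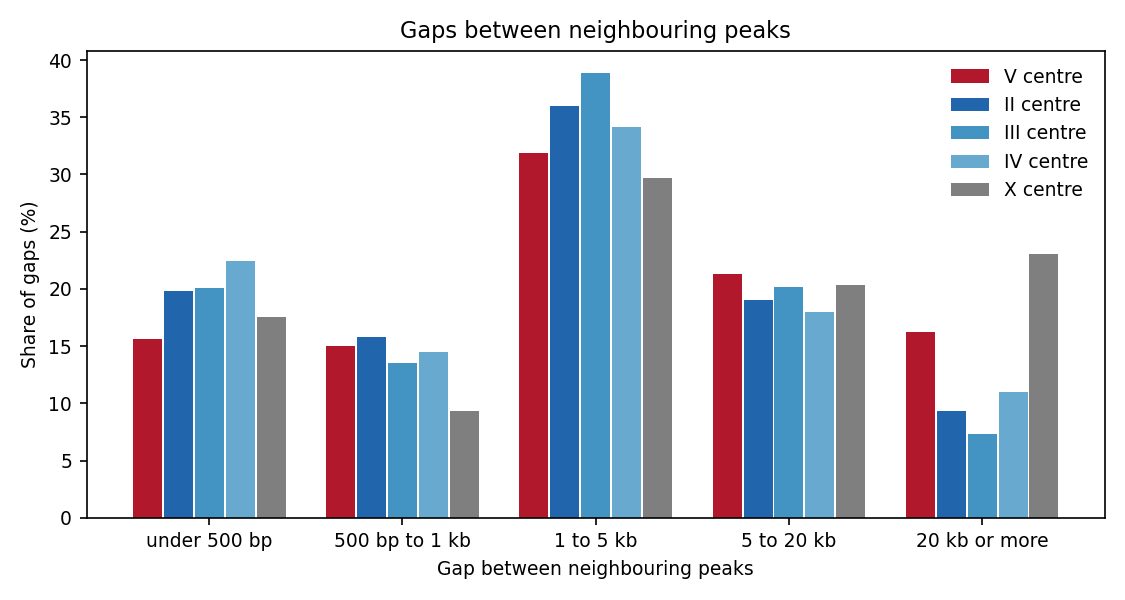
Share of gaps between neighbouring peaks, in %, in 5 classes of length for the middle segments of V, II, III, IV and X. V has a larger share of gaps of 20 kb or more (16.2%) than II, III and IV (7.33 to 11.0%) and a smaller one than X (23.1%).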

How the data were processed

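Pol II ChIP-seq of L4 worms was analysed from 1 peak list combined over 2 ChIP and 2 input samples. The authors called peaks with PeakSeq on WormBase build WS190, per the file headers and source field, and deposited a q-value for each peak. Versions, aligner, read filters and depth are not given in the sources used here. The deposited q-values were all under 0.01 (largest 0.00998), and the smallest gap in the list was 200 bp.

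Strength was −log10 q, width was end minus start plus 1, and peaks were placed by midpoint. Density ratios carry exact conditional binomial intervals, shares Clopper-Pearson intervals and medians exact order-statistic intervals (95%). The measures were tested on simulated data drawn independently, which does not test the intervals for clustered peaks. Strong peaks are of strength 50 or more. Named regions are the 10 strongest and 5 widest members with their neighbours, the 5 densest and sparsest bins, the 5 longest gaps, the edge peaks and the strongest peak of each compared centre. Members, classes and rules were chosen with earlier results of these data known. Alternatives were other q limits, widths, joins, segments and bins. Tables were handled in pandas 2.3.3 and numpy 2.4.6 under Python 3.11.15, intervals came from scipy 1.17.1 and plots from matplotlib 3.10.9.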

Additional observations from a re-analysis of the deposited data

How the results depend on the processing

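A setting with only the peaks of strength 50 or more was chosen after seeing the data. Its density ratio was 1.24 against II and 1.51 against IV, on the other side of 1 from the main values. Both intervals (0.784 to 1.98 and 0.948 to 2.44) include 1, so a change of direction was not established. The density ratio was 0.991 against III and 2.87 against X. With only the peaks at or under the median q-value of the list it was 0.578 against II and 0.505 against III, the median width was 882 bp, the median strength 12.5 and the share of gaps under 1 kb 20.8%. With peaks closer than 2000 bp joined the density ratio was 0.727, 0.672 and 0.822 against II, III and IV, and in covered length 0.847, 0.768, 0.797 and 1.31 against II, III, IV and X. Joining at 500 bp gave a share of short gaps of 17.8%, and removes gaps under 500 bp by construction. Very strong peaks numbered 54 at a limit of 50 and 6 at 200. The other 27 density ratios, over 8 planned settings, stayed within the main intervals. The 67 unlisted regions may limit every count of strong peaks, though whether all of them rank above the first listed peak was not shown. Unknown depth limits the counts of the weakest peaks. No paired analysis was possible because the list combines the samples.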

Other observations

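Peaks of the V centre also formed short runs. Joining peaks closer than 2000 bp turned the 654 members into 356 regions, of which 200 were single peaks and 19 held 5 or more. The run with the most members joined 9 peaks between 11067818 and 11082838 (15021 bp), and its strongest piece had a strength of 30.0. The widest joined region, from 8415032 to 8431610 (16579 bp), joined 6 peaks and contained the peak of strength 154. The run of 7 peaks from 11794189 to 11800729 held no strong peak, with a highest strength of 6.96.

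At the other extreme, 16 members had no neighbour within 20 kb on either side (2.45%). The counts were 9 on II (1.22%), 4 on III (0.552%), 8 on IV (1.04%) and 21 on X (5.75%), and the share over the whole list was not computed. Their median width was 369.5 bp and their median strength 4.91, and 1 of the 16 reached strength 50. The nearest neighbour of a member was 1004 bp away in the median, and 323 of the 654 members (49.4%) had one within 1 kb. That share was 55.1% on II, 53.0% on III, 56.5% on IV and 44.1% on X, and it was not computed over the whole list. Shares of isolated and of close peaks follow peak density, and that part was not separated here. Ranked over all members, the strengths of neighbours showed little relation in the V centre. Spearman's rho was 0.05 over 653 pairs, against 0.09 on II, 0.12 on III, 0.13 on IV and 0.09 on X. With 50.9% of members under strength 5, this rho does not describe the strong peaks alone. Of the 54 strong peaks, 16 had at least 1 neighbour of strength 50 or more, and that share was not computed over all members.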
